A study of Mus musculus with 6 samples.

Results

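The genes described here encode the enzymes that build cholesterol and long-chain fatty acids, together with the proteins that switch those enzymes on and off, in embryonic mouse hearts with and without SMYD1. SMYD1 is a lysine methyltransferase of striated muscle. The 31 genes were chosen as a pathway list and taken by symbol from the table of raw read counts, and all of them were found among its 54532 gene rows. Whole hearts were taken at embryonic day 9.5 from intercrosses of mice heterozygous for a *Smyd1* null allele, and RNA from individual hearts was sequenced as polyadenylated RNA. The groups were 3 homozygous null hearts (*Smyd1-KO*) and 3 wild-type hearts of the same stage (WT). The null allele was constitutive and so not confined to the heart, and the labels gave neither the sex nor the litter of an embryo. The spread between hearts of a genotype, against which each difference was read, was therefore that between separate embryos.

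Cholesterol is made from acetyl-CoA through the mevalonate arm, which yields farnesyl diphosphate, and then through squalene and lanosterol, while fatty acids are built from the same acetyl-CoA by a separate set of enzymes. Transcription of both sets is driven by the sterol regulatory element-binding proteins (SREBPs), encoded by *Srebf1* and *Srebf2*. Their escort, encoded by *Scap*, carries them from the endoplasmic reticulum to be activated when sterols are low, and the INSIG proteins hold the escort back when sterols are high.

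Promoter sequences are shown for a sterol enzyme with a match to a sterol response element (*Hmgcs1*), for the only member called in the test below (*Lpin1*), and for the members with the smallest adjusted *P* value and the lowest fold change (*Insig1* and *Fasn*). They were read from RefSeq promoter windows on GRCm38.p6, 5′ to 3′ on the strand of the gene, up to 250 bases before the annotated start, and the *Insig1* sequence stops at base 201 because an annotated exon begins there. Capitals mark the letters CCAAT on either strand (ATTGG on the other) and, in *Hmgcs1* alone, a match to TCACNCCAC. The positions are chr13:119690101-119690350 on the plus strand for *Hmgcs1*, chr5:28071162-28071362 on the plus strand for *Insig1*, chr11:120824548-120824797 on the minus strand for *Fasn* and chr12:16610967-16611216 on the minus strand for *Lpin1*.
Hmgcs1: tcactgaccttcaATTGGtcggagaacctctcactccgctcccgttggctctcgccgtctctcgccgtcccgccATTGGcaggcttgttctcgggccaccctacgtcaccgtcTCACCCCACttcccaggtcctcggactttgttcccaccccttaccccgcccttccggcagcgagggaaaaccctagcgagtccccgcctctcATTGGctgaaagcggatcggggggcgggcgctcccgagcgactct
Insig1: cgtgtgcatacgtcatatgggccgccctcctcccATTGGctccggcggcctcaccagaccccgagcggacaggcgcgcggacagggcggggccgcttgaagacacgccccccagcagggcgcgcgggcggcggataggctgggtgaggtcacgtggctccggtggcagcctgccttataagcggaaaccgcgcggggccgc
Fasn: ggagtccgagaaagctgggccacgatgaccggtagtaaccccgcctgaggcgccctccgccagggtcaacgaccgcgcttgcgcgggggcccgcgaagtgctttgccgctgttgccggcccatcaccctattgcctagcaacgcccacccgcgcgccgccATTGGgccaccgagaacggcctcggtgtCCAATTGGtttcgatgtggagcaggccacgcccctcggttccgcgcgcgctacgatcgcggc
Lpin1: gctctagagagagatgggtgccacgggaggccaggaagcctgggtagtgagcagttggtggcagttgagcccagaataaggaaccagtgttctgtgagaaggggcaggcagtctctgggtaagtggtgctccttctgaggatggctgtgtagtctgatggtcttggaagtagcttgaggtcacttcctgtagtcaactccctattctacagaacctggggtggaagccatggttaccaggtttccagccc

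Windows were found for 25 of the 31 members, 5 of which had more than 1 start, and *Fdps*, *Fdft1*, *Sqle*, *Stard4*, *Scd1* and *Scd2* had none. The sterol response element letters TCACNCCAC, searched on both strands, matched exactly in 1 member, *Hmgcs1*, where the match begins 137 bases before the start, against 1.22% of the 27025 genes with a window. With 1 mismatch allowed the letters were found in 11 of 25 members (44%) against 23.0% of all genes. CCAAT, the letters bound by nuclear factor Y, was found in 19 of 25 members (76%) against 37.5% of all genes, and the GC box GGGCGG in 20 (80%) against 35.4%. *Lpin1* was among the 6 members with no CCAAT, and *Fasn* carried 3, of which a pair shares bases in the run CCAATTGG. The E-box CACGTG was found in 5 members (20%) against 6.86% of all genes, and its part ACGTG in 6 (24%) against 18.5%. The shares of all genes cover every gene with a window, whether or not it was expressed in these hearts. These matches are letters in a window and were not measured as binding.

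Each heart gave between 48627825 and 64217529 counted reads, the lowest in *Smyd1-KO* heart 1, and 19372 genes passed the low-count filter. Expression is given in CPM, the reads of a gene on a scale common to all libraries after TMM adjustment, and a gene was called where its Benjamini-Hochberg adjusted *P* in edgeR's quasi-likelihood test was below 0.05 with a log2 fold change of at least 0.5 in size. *Smyd1* itself gave 101, 222 and 206 CPM in the null hearts and 414, 379 and 269.8 CPM in the WT hearts, so its transcript was lower in every null heart and was not absent (log2 fold change -1.01, adjusted *P* of 0.0973 by edgeR and 0.00534 by DESeq2). A count over the whole gene does not separate exons that the allele removes from those it leaves. Heart muscle markers (8 genes) were high in all hearts, with summed levels of 8190.0 to 16947 CPM in *Smyd1-KO* and 10762 to 18336 CPM in WT, and none of them was called. *Smyd1-KO* heart 1 stood apart, having the lowest heart muscle sum of the 6 hearts and the highest neural crest sum (84.7 CPM, against 13.6 to 44.4 CPM in the others). All 12 red cell genes had lower values in *Smyd1-KO*, 4 were called by edgeR and 9 by DESeq2. Their summed level was 28.7 to 286 CPM against 757 to 1013 CPM. The 5 epicardial genes had higher values, at summed levels of 137 to 255 CPM against 99.98 to 124 CPM. None was called by edgeR and 2 were called higher by DESeq2. Of 8 endothelial and endocardial genes edgeR called none, and DESeq2 called 1 higher and 2 lower. Of 7 tested endoderm genes edgeR called none and DESeq2 called 1 higher. All 4 smooth muscle genes had lower values, and edgeR called none and DESeq2 called 1 lower. Their summed levels overlapped, at 1192 to 2249 CPM in *Smyd1-KO* and 1532 to 2826 CPM in WT. Over all genes DESeq2 called 5.98% higher and 3.31% lower. Of the 5 macrophage genes 3 were too low to test, including *Cx3cr1*, at 0 counts in 4 hearts. The part of these cell types in the values below was not tested.

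Across the 31 members, all of which passed the filter, expression of cholesterol and fatty acid synthesis genes was close to WT in most cases. In a whole heart, fewer cells of a type and less RNA per cell cannot be told apart. Only 1 member was called higher in *Smyd1-KO*, *Lpin1*, and 0 were called lower, against 2.86% of all tested genes called higher, 1.42% called lower and 4.28% in either direction. Without the fold limit, 2 members passed the test upward (*Lpin1* and *Insig1*) and 0 downward, where 3.32% and 2.01% of all genes did so, and at an unadjusted *P* below 0.05 there were 5 higher (13.1% of all genes) and 6 lower (11.9%). DESeq2 called *Lpin1* higher and *Fasn* lower, with 5.98% and 3.31% of all genes called. The median log2 fold change of the members was -0.04, that of all tested genes was -0.00, and members ranged from -0.67 for *Fasn* to 0.66 for *Lpin1*. The 95% interval of the log2 fold change lay within -0.5 to 0.5 for 22 of 31 members, against 30.9% of all genes. For those 22 members a change past the fold limit lay outside the interval. Intervals narrow as reads increase, and the comparison genes were not matched to the members in level. Every *Smyd1-KO* heart lay above every WT heart for 7 members (15.9% of all genes) and below for another 7 (15.5%).

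**Figure D1:**
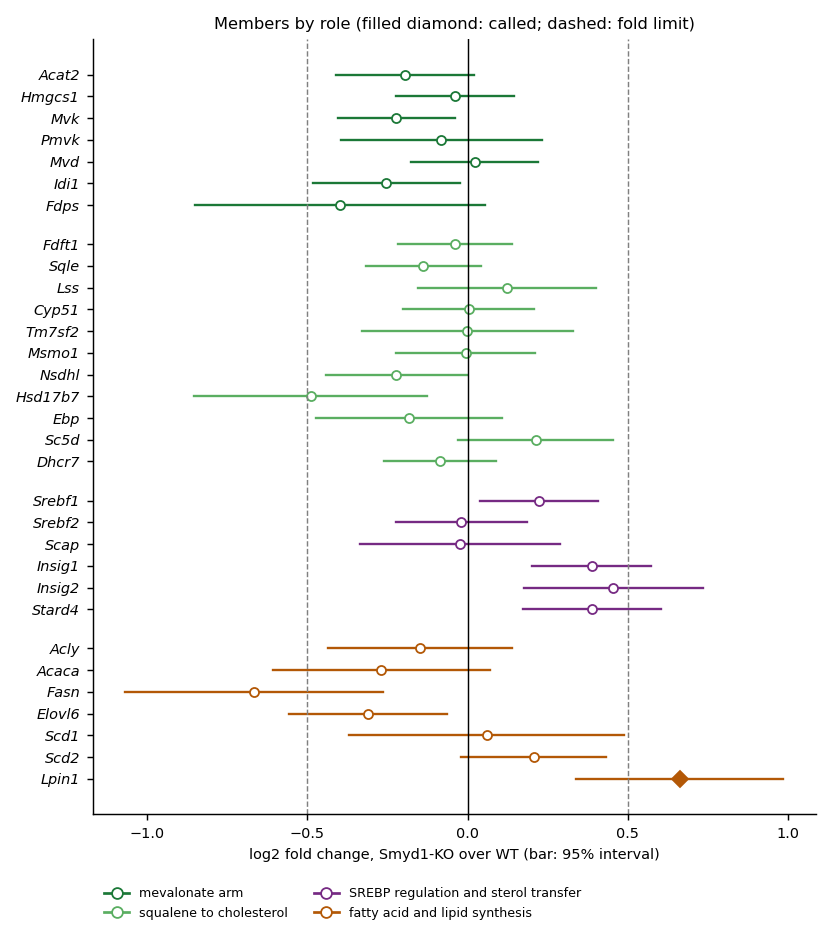
Log2 fold change of *Smyd1-KO* over WT for each of the 31 members, by role, with the 95% interval from edgeR (n = 3 hearts per genotype) and dashed lines at the fold limit of 0.5. The single filled diamond is *Lpin1* at 0.66, the *Srebf1*, *Insig1*, *Insig2* and *Stard4* intervals lie to the right of 0, and those of *Mvk*, *Idi1*, *Nsdhl*, *Hsd17b7*, *Fasn* and *Elovl6* lie to the left.

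Levels per length differed widely among members. In WT hearts *Scd2*, a stearoyl-CoA desaturase, had the highest mean at 204.8 CPM per kb of exon, followed by *Acly* at 77.6, *Fasn* at 57.1 and *Hmgcs1* at 40.8 CPM per kb. The lowest were *Fdps* at 1.23 and *Lpin1* at 0.932 CPM per kb. The *Fdps* level is uncertain because of the shared exonic bases described below. *Hmgcs1* and *Srebf2*, neighbours at 40.8 and 40.0 CPM per kb, overlapped between hearts. In *Smyd1-KO* hearts the order was much the same at the top, but *Fasn*, at 36.0 CPM per kb, moved from rank 3 to rank 5.

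**Figure D2:**
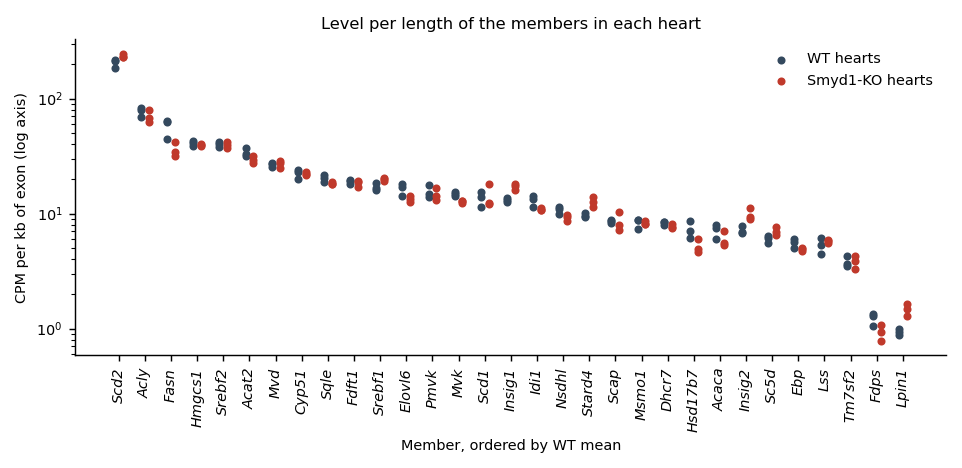
Level per length (CPM per kb of exon, log axis) of each member in the 3 WT and 3 *Smyd1-KO* hearts, ordered by the WT mean. Levels run from 0.932 CPM per kb for *Lpin1* to 204.8 for *Scd2* in WT, and the *Fasn* points of *Smyd1-KO* hearts lie below those of WT hearts.

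No enzyme of cholesterol synthesis passed the test. Of the 18 genes, 4 fold changes were above 0 and 14 below, the median was -0.08 on the log2 scale, and for 16 of them the interval lay within the fold limits. Their summed level was 947 to 973 CPM in *Smyd1-KO* and 957 to 1048 CPM in WT hearts, which overlap. In the mevalonate arm, 6 of 7 genes had negative values (median -0.19) and the summed level was 405 to 412 CPM against 420.5 to 458 CPM. *Hmgcs1*, which makes HMG-CoA, had a log2 fold change of -0.04 (95% interval -0.22 to 0.14). On the same log2 scale, on which all single values below are fold changes, *Acat2*, which joins acetyl-CoA units, stood at -0.19, and of the kinases and decarboxylase that convert mevalonate *Mvk* stood at -0.22, *Pmvk* at -0.08 and *Mvd* at 0.02. *Idi1*, the isopentenyl diphosphate isomerase, stood at -0.25. For *Mvk* and *Idi1* every *Smyd1-KO* heart was below every WT heart, with adjusted *P* values of 0.135 and 0.163 by edgeR. *Fdps*, which makes farnesyl diphosphate, had the widest interval of the arm. It gave 3.29, 3.92 and 4.54 CPM in the null hearts and 4.43, 5.45 and 5.62 CPM in the WT hearts. Its highest null heart overlapped the lowest WT heart, the log2 fold change was -0.40 ± 0.193 (SE), and the adjusted *P* was 0.249 by edgeR. Because 1124 exonic bases of *Fdps* are shared on the same strand with the annotated gene *Gm43738*, its count is uncertain.

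Between squalene and cholesterol, 3 of 11 genes had positive values and the median was -0.04. *Fdft1* (squalene synthase) stood at -0.04, *Sqle* (squalene epoxidase) at -0.14, *Lss* (lanosterol synthase) at 0.12 and *Cyp51* (lanosterol demethylase) at 0.00. Among the enzymes that modify the sterol, *Tm7sf2* stood at -0.00, *Msmo1* at -0.01, *Nsdhl* at -0.22, *Ebp* at -0.18, *Sc5d* at 0.21 and *Dhcr7* at -0.09. None of these 10 passed the test, although *Sqle* and *Nsdhl* were lower and *Sc5d* higher in every *Smyd1-KO* heart. *Hsd17b7*, a sterol ketoreductase that works with *Nsdhl* and *Msmo1*, gave 25.0, 30.8 and 23.5 CPM in the null hearts and 43.7, 36.2 and 31.5 CPM in the WT hearts. The groups did not overlap, but the highest null heart came close to the lowest WT heart. The means were 26.4 ± 3.82 and 37.1 ± 6.18 CPM (SD, n = 3 each), a log2 fold change of -0.49 ± 0.155 (SE), with an adjusted *P* of 0.109 by edgeR and 0.0497 by DESeq2.

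**Figure D3:**
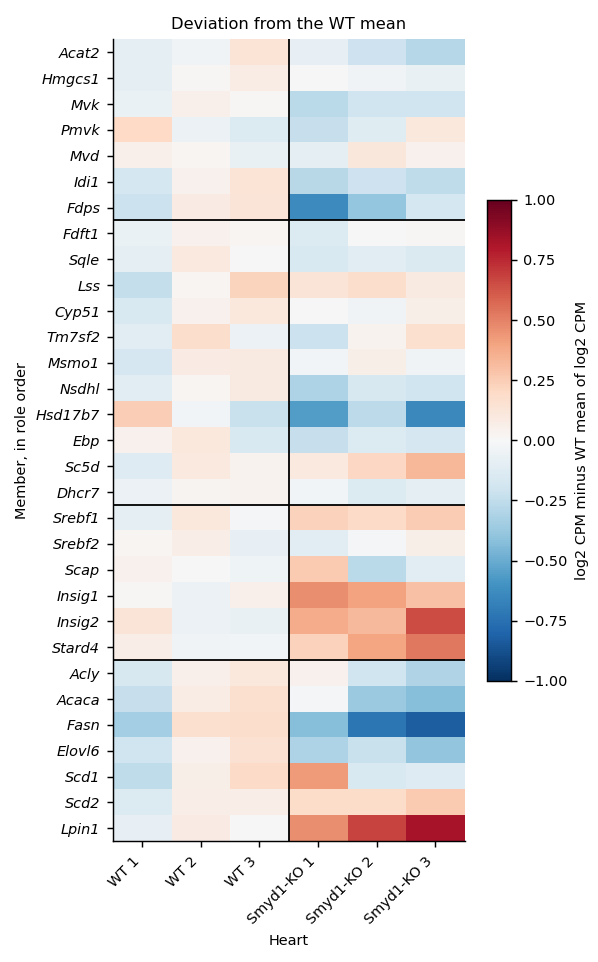
Deviation of each member in each heart from the WT mean, in log2 CPM, with WT hearts on the left, *Smyd1-KO* hearts on the right and lines between the 4 roles. The sterol enzymes are mostly pale, *Insig1*, *Insig2*, *Stard4* and *Lpin1* are red in all 3 *Smyd1-KO* hearts, and *Fasn* is blue in all 3.

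Of the 6 SREBP regulators and sterol carriers none was called by edgeR or DESeq2. In 4 of them every *Smyd1-KO* heart lay above every WT heart, as in 15.9% of all genes, the median log2 fold change was 0.31, and the summed level was 603 to 639 CPM against 546 to 583 CPM. Neither the sterol-directed SREBP gene nor the escort gene was among those 4. *Srebf2*, whose product is the main activator of sterol enzymes, gave 266, 285 and 299 CPM in the null hearts and 291, 299.9 and 271 CPM in the WT hearts. These ranges overlapped almost wholly, with a log2 fold change of -0.02 (95% interval -0.22 to 0.18). *Scap* gave 76.5, 53.2 and 59.1 CPM in the null hearts and 65.7, 64.3 and 62.0 CPM in the WT hearts, so the WT values sat inside the wider null range, in which heart 1 was the highest. Its log2 fold change was -0.02, with an interval from -0.34 to 0.29. *Srebf1*, whose product favours fatty acid genes, gave 113, 109 and 114 CPM in the null hearts and 89.7, 103 and 94.8 CPM in the WT hearts. The groups did not overlap, the log2 fold change was 0.22 ± 0.0783 (SE), and the adjusted *P* was 0.135 by edgeR.

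Among the INSIG genes, *Insig1* passed the test without reaching the fold limit. Its values were 56.2, 53.7 and 49.998 CPM in the null hearts and 41.0, 39.2 and 42.1 CPM in the WT hearts. All null hearts were above all WT hearts, and the means differed by 30.8% (53.3 ± 3.12 against 40.8 ± 1.48 CPM, SD, n = 3 each), a log2 fold change of 0.39 ± 0.0792 (SE) with an adjusted *P* of 0.0388 by edgeR. With any 1 heart left out, the log2 fold change stayed between 0.35 and 0.43 while the adjusted *P* by edgeR was between 0.0517 and 0.168. *Insig2*, the paralog, gave 32.2, 31.1 and 39.0 CPM in the null hearts and 27.2, 23.8 and 23.6 CPM in the WT hearts. The groups did not overlap, *Smyd1-KO* heart 3 being the highest, and the log2 fold change was 0.45 ± 0.119 (SE) with an adjusted *P* of 0.0708 by edgeR and 0.0191 by DESeq2. *Stard4*, which carries cholesterol between membranes, was measured at 63.2, 70.8 and 77.5 CPM against 56.3, 52.5 and 52.8 CPM. It did not overlap either, at 0.39 ± 0.0922 (SE) on the log2 scale, with an adjusted *P* of 0.0569 by edgeR and 0.0200 by DESeq2.

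**Figure D4:**
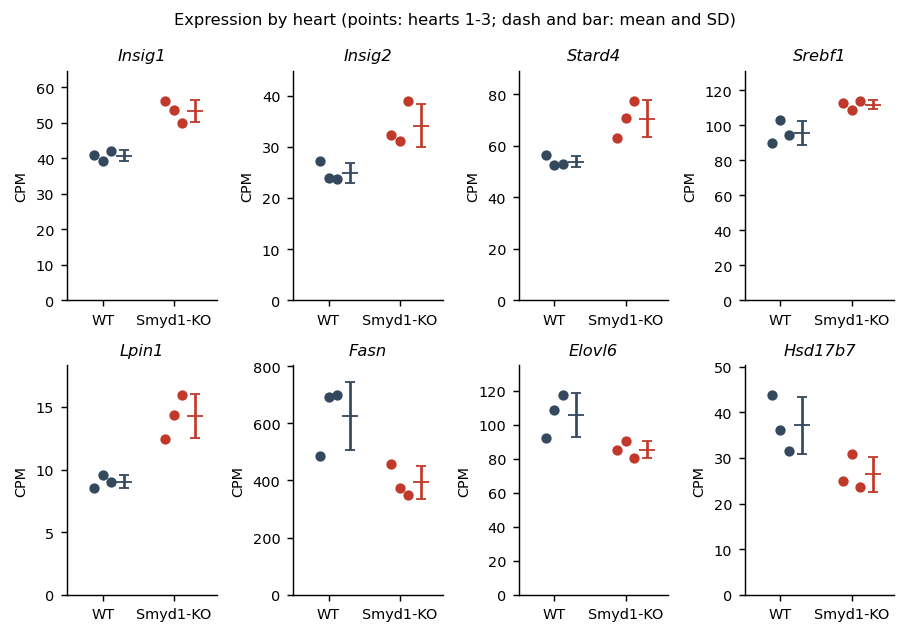
CPM of 8 members in each heart, with points for hearts 1 to 3 of each genotype from left to right and a dash and bar for the mean and SD. *Insig1*, *Insig2*, *Stard4*, *Srebf1* and *Lpin1* are higher and *Fasn*, *Elovl6* and *Hsd17b7* are lower in all 3 *Smyd1-KO* hearts, as for *Lpin1* at 12.5 to 15.9 against 8.49 to 9.55 CPM.

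*Lpin1* was the only member called. It encodes a phosphatidate phosphatase that makes diacylglycerol for triglyceride and phospholipid synthesis, and it lies at chr12:16535669-16610966 on the minus strand. It gave 12.5, 14.4 and 15.9 CPM in the null hearts and 8.49, 9.55 and 8.99 CPM in the WT hearts. No heart of one genotype fell in the range of the other, and *Smyd1-KO* heart 3 was the highest. The mean rose by 58.2%, from 9.01 ± 0.526 to 14.3 ± 1.73 CPM (SD, n = 3 each), a log2 fold change of 0.66 ± 0.138 (SE), with an adjusted *P* of 0.0412 by edgeR and 0.000360 by DESeq2. This call was kept in 1 of 6 fits that left out a heart, the one without *Smyd1-KO* heart 1 (0.75, adjusted *P* of 0.0236 by edgeR), and the log2 fold change was 0.58 to 0.75 across the 6.

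Of the members, *Acly*, *Acaca*, *Fasn* and *Elovl6*, whose products build the fatty acid chain or its precursors, had negative values. Chain elongation genes among the neighbouring pathway genes described below had values in both directions. The lowest member was *Fasn*, the fatty acid synthase at chr11:120805846-120824547 on the minus strand. *Fasn* gave 459, 375 and 348 CPM in the null hearts and 487, 691 and 698 CPM in the WT hearts. Every null heart was lower, although *Smyd1-KO* heart 1 lay close to WT heart 1 and the other hearts were further apart. The mean was 37.0% lower (394 ± 58.0 against 625 ± 120.0 CPM, SD, n = 3 each), a log2 fold change of -0.67 ± 0.171 (SE), with an adjusted *P* of 0.0689 by edgeR and 0.00481 by DESeq2. It was called in the fits without *Smyd1-KO* heart 1 (-0.79, adjusted *P* of 0.0410 by edgeR) and without WT heart 1 (-0.81, adjusted *P* of 0.0447 by edgeR), and in neither direction in the other 4. *Acly*, which makes cytosolic acetyl-CoA from citrate, stood at -0.15, and *Acaca*, which makes malonyl-CoA, at -0.27, with overlapping groups in both. *Elovl6*, which lengthens palmitate, was measured at 85.4, 90.6 and 80.4 CPM against 92.0, 109 and 117 CPM. It did not overlap, at -0.31 ± 0.105 (SE) on the log2 scale, with an adjusted *P* of 0.126 by edgeR.

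The desaturase genes among the members, *Scd2* and *Scd1*, whose products place a double bond in the chain, had values above 0. Desaturase genes among the neighbouring pathway genes described below had values in both directions. *Scd2* gave 1266, 1265 and 1339.6 CPM in the null hearts and 1016, 1172 and 1169 CPM in the WT hearts, every null heart being higher, with a log2 fold change of 0.21 ± 0.0969 (SE) and an adjusted *P* of 0.239 by edgeR. *Scd1* gave 88.8, 59.4 and 60.4 CPM in the null hearts and 55.6, 68.8 and 75.7 CPM in the WT hearts. These overlapped, *Smyd1-KO* heart 1 was the highest of the 6, and the log2 fold change was 0.06 (95% interval -0.37 to 0.49). *Smyd1-KO* heart 1 was also the highest null heart for *Acly*, *Acaca* and *Fasn*.

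Within-heart ratios of levels per length are given for 4 pairs as a description, since the pairs were chosen with their values known and 3 hearts against 3 cannot give a two-sided exact permutation *P* below 0.1. *Fasn* over *Acaca*, successive enzymes of one route, was 5.95, 6.22 and 5.98 in *Smyd1-KO* and 7.33, 8.43 and 7.99 in WT hearts, and *Srebf1* over *Srebf2* was 0.539, 0.488 and 0.486 against 0.393, 0.439 and 0.446. Neither ratio overlapped between the genotypes. *Insig1* over *Insig2* and *Scd2* over *Scd1* overlapped.

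Neighbouring pathway genes were taken from 4 further lists, of which 53 of 55 genes were tested, 2 were called higher and 0 lower (2.86% and 1.42% of all genes), and the median log2 fold change was 0.07. Of 13 genes for sterol sensing, storage and transport, 9 had positive values (median 0.24) and both calls were among them. *Soat1*, which esterifies cholesterol for storage, gave 155, 160.5 and 193 CPM in the null hearts and 91.3, 117 and 118 CPM in the WT hearts. It rose without overlap, by 0.64 ± 0.132 (SE) on the log2 scale with an adjusted *P* of 0.0392 by edgeR. *Npc2*, a cholesterol-binding protein of the lysosome, was measured at 174, 166 and 186 CPM against 135, 118 and 112 CPM. It also rose without overlap, by 0.53 ± 0.0953 (SE) with an adjusted *P* of 0.0276 by edgeR. With a heart left out, *Soat1* was called in 1 and *Npc2* in 2 of 6 fits, at log2 fold changes of 0.54 to 0.71 for *Soat1* and 0.48 to 0.62 for *Npc2*. *Nr1h3*, which encodes a liver X receptor, stood at -0.63 with an adjusted *P* of 0.126 by edgeR and 0.0452 by DESeq2. *Scarb1*, which encodes a lipoprotein receptor, stood at 0.51 with every *Smyd1-KO* heart above every WT heart and an adjusted *P* of 0.101 by edgeR and 0.0343 by DESeq2. In this list DESeq2 called 3 genes higher (*Soat1*, *Npc2* and *Scarb1*) and 1 lower (*Nr1h3*), against 5.98% and 3.31% of all genes.

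Of 10 genes for isoprenoid products of the mevalonate arm, 7 had negative values (median -0.14) and none was called. *Icmt*, which methylates prenylated proteins, gave 64.2, 66.5 and 61.6 CPM in the null hearts and 89.1, 88.4 and 83.8 CPM in the WT hearts. It did not overlap and passed the test below the fold limit, having fallen by 0.44 on the log2 scale (SE 0.0697) with an adjusted *P* of 0.0191 by edgeR. *Pdss1*, which builds the tail of ubiquinone, stood at -0.51 with an adjusted *P* of 0.0559 by edgeR and 0.00617 by DESeq2. Of 9 tested genes for SREBP processing and degradation, 8 had positive values (median 0.16) and none was called. *Mbtps2*, a protease that frees SREBPs, stood at 0.30 with overlapping groups and an adjusted *P* of 0.188 by edgeR. Its count is uncertain, since 2867 of its exonic bases are shared on the same strand with *Yy2*. *Pgrmc1*, a haem-binding membrane protein, stood at 0.29 without overlap, with an adjusted *P* of 0.102 by edgeR. Of 21 tested genes for other lipid synthesis, 12 had positive and 9 negative values (median 0.08) and none was called, with *Scd3*, a further desaturase, at 0.70 and *Acacb*, a mitochondrial acetyl-CoA carboxylase, at -0.38.

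**Figure D5:**
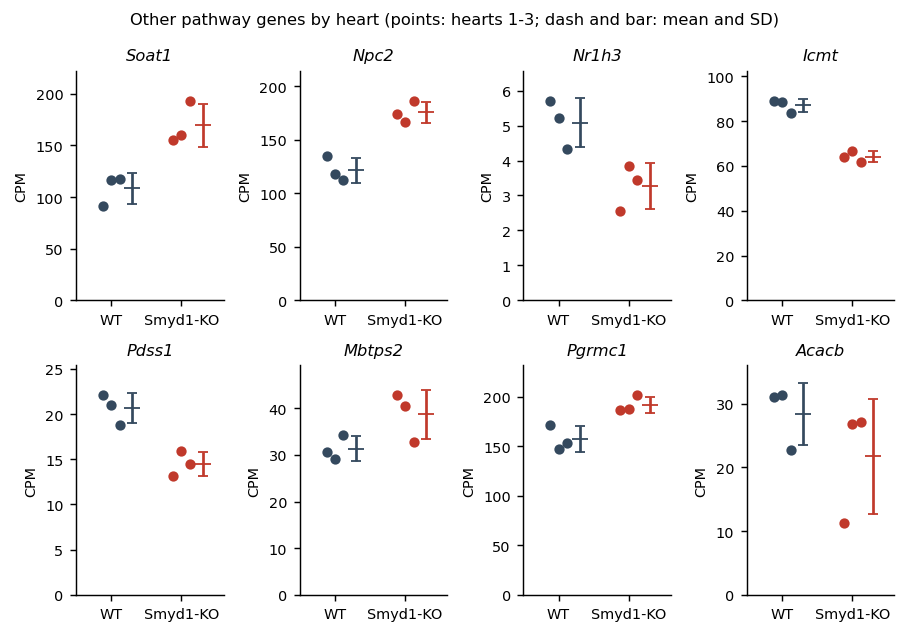
CPM of 8 neighbouring pathway genes in each heart, drawn as for the members. *Soat1* and *Npc2* are higher and *Icmt* and *Pdss1* lower in all 3 *Smyd1-KO* hearts, as for *Icmt* at 61.6 to 66.5 against 83.8 to 89.1 CPM, while *Mbtps2* and *Acacb* overlap.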

How the data were processed

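Transcript abundance was measured in 3 *Smyd1-KO* and 3 WT hearts, grouped by the labels' genotype. The authors selected polyadenylated RNA, sequenced paired ends and aligned reads to mm10 with STAR. The deposited values used are raw counts per gene, without normalization. The counting tool, annotation and strand setting are not given in the sources used here, so overlapping genes could share reads: exons of 11 of the 31 members overlap another gene, 4 on the same strand (*Fdps*, *Scd2*, *Srebf1* and *Tm7sf2*). The deposited normalized table was not used.

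Counts were tested with edgeR 4.0.16 in R 4.3.3 (filterByExpr, TMM, quasi-likelihood F-test, two-sided, genotype only, Benjamini-Hochberg adjustment over 19372 genes). SE is the size of the log2 fold change over the square root of F. CPM used TMM factors of 0.979 to 1.04. DESeq2 1.42.0 was the alternative test, and the code was tested on simulated data. Other alternatives were 2 other normalizations, other low-count filters, removal of mitochondrial and haemoglobin genes, a replicate block, no fold limit and each heart left out. Depth was 48627825 to 64217529 counts per heart, and the common biological coefficient of variation was 22.5%. Exon lengths came from GENCODE vM21, in which 54495 of 54532 gene IDs were found.

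The members and lists were chosen with earlier results of these data known. By rule, values per heart are given for called members, the SREBP regulators, the member with the largest fold change of each role and the *Scd1*/*Scd2* pair. Values of *Stard4*, *Elovl6*, *Scarb1* and of the other pathway genes, of which only called genes and the 2 with the largest change of a list are named, were added after seeing the values. The red cell genes are given as a list only, and 1 item is not reported here.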

Additional observations from a re-analysis of the deposited data

How the results depend on the processing

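DESeq2 called 1126 genes higher and 623 lower, and it and the fit with no low-count filter each called 1 member lower, *Fasn* (adjusted P of 0.00481 and 0.0425). With no fold limit 2 members passed upward, *Insig1* and *Lpin1*, and with 1 mismatch 11 members held the sterol response element letters. The deviations of same-numbered hearts had correlations of -0.216, -0.0538 and -0.182. With so few hearts and no litter in the labels, these cannot show whether the replicate numbers pair hearts. With a replicate block edgeR called 56 genes higher and 3 lower, and 0 members in either direction (adjusted P of 0.147 for *Lpin1*). Of the other normalizations, filters and gene sets, none changed the call of *Lpin1*.

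With each heart left out in turn, genes called higher ranged from 89 to 809 and lower from 8 to 447, members called higher from 0 to 1 and lower from 0 to 1, and the members' median log2 fold change from -0.07 to -0.02. The lowest gene counts came without WT heart 2. Without *Smyd1-KO* heart 1 the members called were *Lpin1* higher and *Fasn* lower. The cause of these shifts was not tested. Members near 0 changed sign: *Tm7sf2* was at 0.000518 with RLE factors, 0.00108 with upper-quartile scaling, 0.00377 with no filter and 0.00399 in DESeq2. With a heart left out, log2 fold changes ranged from -0.0737 to 0.00352 for *Hmgcs1*, -0.182 to 0.0319 for *Pmvk*, -0.0230 to 0.0801 for *Mvd*, -0.0659 to 0.00723 for *Fdft1*, -0.0614 to 0.0611 for *Cyp51*, -0.0865 to 0.0971 for *Tm7sf2*, -0.0785 to 0.0397 for *Msmo1*, -0.0579 to 0.0246 for *Srebf2*, -0.187 to 0.0859 for *Scap* and -0.154 to 0.164 for *Scd1*.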
